A study of Homo sapiens with 54 samples.

Results

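The BCL2 family of apoptosis regulators was followed at the RNA level in prostate cancer xenografts through castration and enzalutamide. The family was defined here by name as 10 genes, all found among the 60642 gene symbols of the expression table: the survival genes BCL2, BCL2L1 and MCL1, the pore-forming genes BAX and BAK1, and the BH3-only genes BBC3, PMAIP1, BCL2L11, BID and BIK. The choice was made by name, with earlier results of these data known. All 10 passed the filter on low values.

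The 54 tumours were grown under the skin of male NOD-SCID mice, which lack working T and B cells, from LNCaP cells, a human prostate cancer line whose growth depends on androgens. Each tumour came from a different mouse and was sequenced as bulk RNA, so fewer cells of a kind and less RNA per cell cannot be told apart. The cells were from 1 line (clone FGC), and the tumours were therefore replicate grafts of one genotype. The groups address how tumours respond to, and then escape from, loss of androgen signalling.

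All mice had surgery once the graft had reached about 200 mm3. PRE-CX tumours (n = 9) came from mice with a mock operation and were taken at 1000 mm3. The other mice were castrated. POST-CX tumours (n = 8) were taken soon after castration, when serum PSA, a secreted product of prostate cells, was at its lowest. CRPC tumours (n = 10) were taken when PSA had returned to its level from before castration or the graft had reached 1000 mm3. The remaining castrated mice received enzalutamide, an antiandrogen, at 10 mg/kg by mouth on 5 days a week once PSA began to rise. Of these, ENZS tumours (n = 12) were taken at the second PSA low and ENZR tumours (n = 15) after relapse on the drug. Graft size and time since injection were thus not matched between groups.

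Members of the BCL2 family decide whether the outer mitochondrial membrane is opened during apoptosis. BAX and BAK1 form the pore through which cytochrome c leaves, BCL2, BCL-XL (the product of BCL2L1) and MCL1 bind and restrain them, and BH3-only proteins neutralise the survival proteins or activate the pore formers directly. In the prostate, luminal cells undergo apoptosis when androgens are withdrawn, and BCL2 is known for its expression in androgen-independent prostate cancer.

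The promoter of BAX is shown because this was the pore-forming member with the strongest differences over the 5 groups. Promoter windows from RefSeq (GRCh38.p14), running from 250 bases before to 50 bases after a listed start, were matched for 8 of the 10 members (all but MCL1 and BIK). BAX is a protein-coding gene on chromosome 19 (48954875 to 48961798, plus strand), and its window is chr19:48954625-48954924. It is printed in the sense of the gene, with capitals marking the E-box CACGTG. BCL2 lies on chromosome 18 (63123346 to 63320090, minus strand), but its window (63319720 to 63320019) lies wholly inside the gene and does not reach the sequence before the outermost start, so it is not shown.
BAX: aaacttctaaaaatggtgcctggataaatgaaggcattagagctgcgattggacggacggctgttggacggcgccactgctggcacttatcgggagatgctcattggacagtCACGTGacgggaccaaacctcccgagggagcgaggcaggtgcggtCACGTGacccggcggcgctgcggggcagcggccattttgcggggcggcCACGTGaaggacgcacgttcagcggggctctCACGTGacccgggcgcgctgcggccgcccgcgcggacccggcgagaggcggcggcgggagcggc
The E-box, which reads the same on both strands, was searched after the sequence had been read. It occurred 4 times in the BAX window. At least 1 copy was held by 7.26% of 35116 RefSeq promoter windows of the same length, and 4 or more copies by 0.0142%. The GC box (GGGCGG, or CCGCCC on the other strand) occurred 2 times in the BAX window, without overlapping an E-box, and was held by 45.0% of all windows. The half-site of the androgen response element (AGAACA, or TGTTCT on the other strand) was not found in the listed windows of the 8 members (for BCL2, the window inside the gene), against 14.8% of all windows. These matches describe letters only, and no binding was measured.

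Levels are given as TPM (a relative abundance of transcripts that is corrected for their length) after rescaling each tumour so that its human genes sum to 1000000. This was done because mouse and human reads had been quantified together, and the human share ranged from 12.1% to 97.5% of the total (median 89.9%). It was under 70% in 4 tumours: POST-CX mice 91 (27.9%) and 48 (59.7%) and ENZR mice 87 (12.1%) and 103 (66.7%). All 8 prostate luminal markers were present, with KLK3, the gene of PSA, at 4592 TPM on average in PRE-CX and 2013 in ENZR. Of 12 stroma and blood genes standing for the mouse host, 7 reached 1 TPM. The summed level of these 12 was between 9.02 and 21.7 TPM in PRE-CX, 13.2 and 41.4 in POST-CX, 16.7 and 105 in CRPC, 21.7 and 299 in ENZS and 14.0 and 96.3 in ENZR. On average COL1A1 was the highest of them in PRE-CX (7.49 TPM) and POST-CX (7.68), LUM in CRPC (17.2) and ENZS (21.7), and COL3A1 in ENZR (28.1). CD68, a macrophage marker, had means of 0.838 TPM in PRE-CX, 4.25 in ENZS and 5.83 in ENZR, and VWF, an endothelial marker, 4.85 TPM in PRE-CX and 1.21 to 3.15 in the other groups. PTPRC, CD3E, MS4A1, HBB and PECAM1, the remaining blood and endothelial markers, were at or near 0 in every group. The 4 cycling genes MKI67, TOP2A, CCNB1 and CDK1 summed to 274 to 460 TPM in PRE-CX, 94.9 to 372 in POST-CX, 143 to 478 in CRPC, 29.3 to 131 in ENZS and 24.1 to 282 in ENZR. Both sums moved with the treatment groups, and their part in the results on the BCL2 family was not tested.

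MCL1 was the most abundant member in TPM and BCL2 the least abundant in every group. In PRE-CX, MCL1 was at 124 ± 26.6 TPM and BCL2 at 1.04 ± 0.49 TPM (SD, n = 9). MCL1 made up 63.0% ± 5.62 of the summed TPM of the 3 survival genes in PRE-CX, and BCL2 0.539% ± 0.257. In ENZS (n = 12) the share of BCL2 was 1.49% ± 0.523 and in ENZR (n = 15) 1.46% ± 0.419. The relative difference of BCL2 between groups was thus large, while its share of the survival transcripts remained small.

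**Figure D1:**
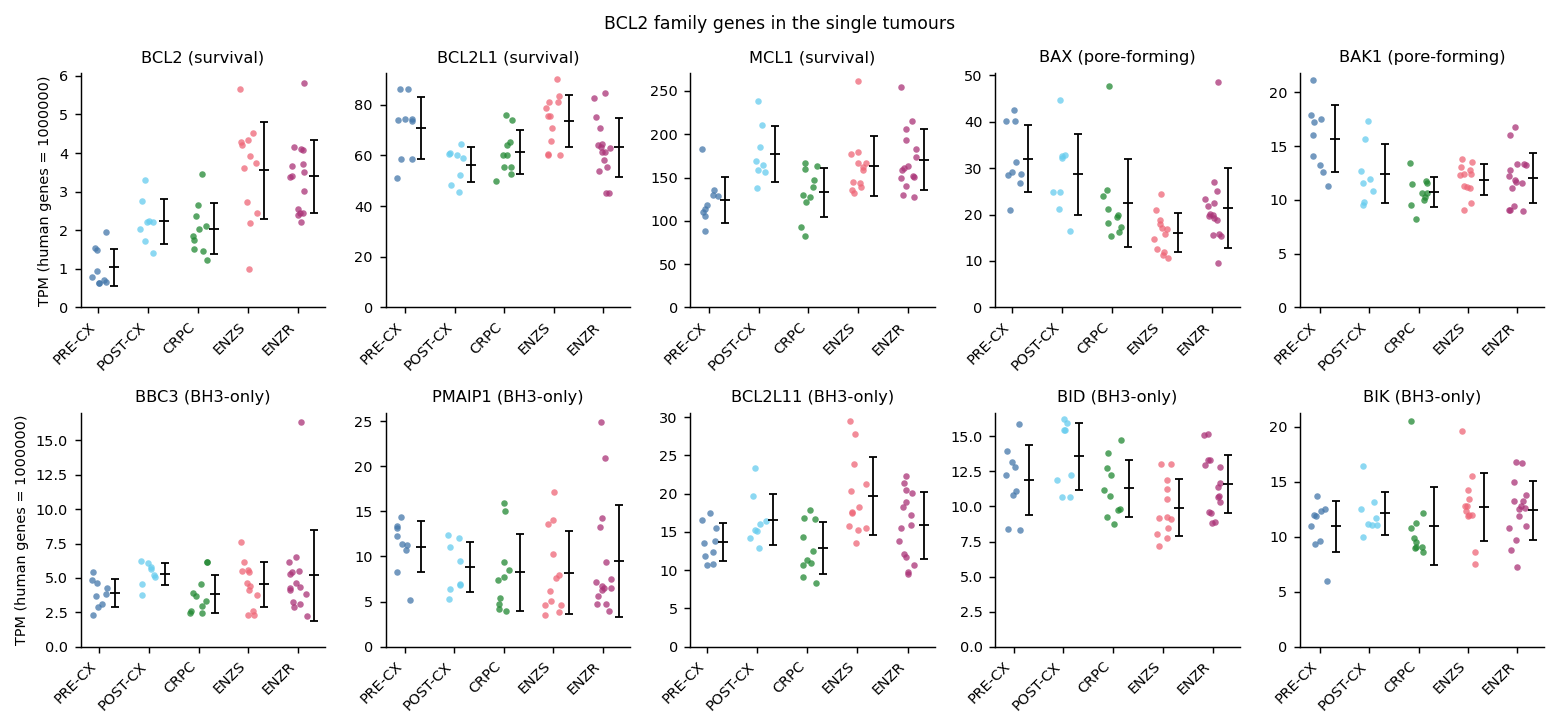
Level of each BCL2 family gene (TPM, human genes summing to 1000000) in every tumour of the 5 groups, with 1 point per tumour and black bars for mean ± SD (n = 9, 8, 10, 12 and 15). BCL2 rises from a median of 0.794 TPM in PRE-CX to 3.83 in ENZS, whereas BAX falls from a median of 29.2 TPM to 16.4.

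Each treated group was first compared with PRE-CX. Tests were made on log2(TPM + 1) with limma over all 17593 genes that passed the filter, and a gene passed at a Benjamini-Hochberg adjusted p under 0.05. The 4 comparisons share the PRE-CX tumours and are not independent of each other. In POST-CX, 4 of 10 members passed (BCL2 and MCL1 higher, BCL2L1 and BAK1 lower), against 26.3% of all genes. In CRPC, 3 of 10 passed (BCL2 higher, BAX and BAK1 lower), against 20.0% of all genes. In ENZS, 5 of 10 passed (BCL2, MCL1 and BCL2L11 higher, BAX and BAK1 lower), against 61.1% of all genes. In ENZR, 4 of 10 passed (BCL2 and MCL1 higher, BAX and BAK1 lower), against 58.4% of all genes. Whether the share of members differed from that of all genes was not tested, and which was larger changed with the setting. In ENZS after centring each tumour on its median gene, for example, 6 of 10 members passed (1 higher, 5 lower) against 54.9% of all genes, and in POST-CX with TPM as deposited none did, against 4.33%.

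Genes passing the test were mostly higher than in PRE-CX, with 20.6% of all genes higher and 5.62% lower in POST-CX, 14.2% and 5.87% in CRPC, 47.5% and 13.6% in ENZS, and 44.6% and 13.8% in ENZR. The median log2 difference over all genes tested was 0.16 in POST-CX, 0.08 in CRPC, 0.29 in ENZS and 0.25 in ENZR. Over the 10 members it was 0.17, -0.08, 0.11 and 0.07, in the same order. With TPM as deposited the median over all genes was -0.05 in POST-CX, 0.11 in CRPC, 0.26 in ENZS and 0.07 in ENZR. Centring each tumour on the median of its genes brings this median close to 0 by construction, and differences are then relative to the median gene. The share of passing genes that were higher was then 41.4% in place of 78.6% in POST-CX, 51.4% in place of 70.7% in CRPC, 48.4% in place of 77.8% in ENZS and 46.7% in place of 76.4% in ENZR. With TPM as deposited it was 38.3%, 74.8%, 78.7% and 60.6%. The increases of MCL1 and BCL2L11 are therefore also given relative to the median gene.

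**Figure D2:**
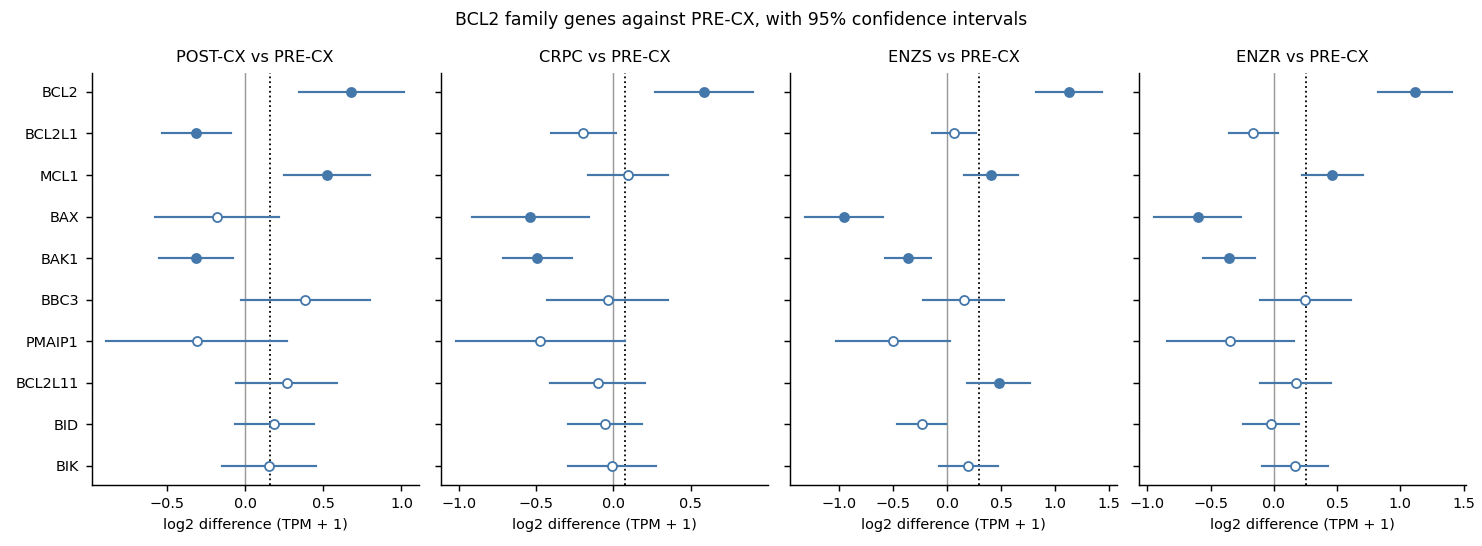
Log2 difference of each BCL2 family gene from PRE-CX in the 4 treated groups, with 95% confidence intervals. Filled points passed the test, the grey line is 0 and the dotted line is the median of all 17593 genes. BCL2 lies right of the dotted line and BAK1 left of 0 in all 4 comparisons.

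BCL2, the founding member of the family and a survival gene, was higher in all 4 treated groups. In PRE-CX its level had a lowest value of 0.622, a median of 0.794 and a highest value of 1.95 TPM. In POST-CX these values were 1.40, 2.20 and 3.30 TPM, and in CRPC 1.24, 1.94 and 3.46 TPM. All 8 POST-CX and all 10 CRPC tumours were above the PRE-CX median, and 6 and 5 of them, respectively, were above the whole PRE-CX range. In ENZS the lowest, median and highest values were 1.001, 3.83 and 5.66 TPM, and in ENZR 2.20, 3.42 and 5.81 TPM. All 15 ENZR tumours and 11 of 12 ENZS tumours lay above the whole PRE-CX range. The exception was ENZS mouse 101, at 1.001 TPM, with a human share of 92.9% and the lowest stroma and blood sum of its group (21.7 TPM). How many of all genes were separated from PRE-CX to this extent was not counted.

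The log2 difference of BCL2 from PRE-CX was 0.68 (SE 0.17, adjusted p = 0.00225) in POST-CX and 0.58 (SE 0.16, adjusted p = 0.0060) in CRPC. In ENZS it was 1.13 (SE 0.15, adjusted p = 1.48e-08) and in ENZR 1.11 (SE 0.15, adjusted p = 1.32e-08). Because BCL2 was near 1 TPM, a pseudocount of 1 TPM understates its change. With a pseudocount of 0.1 TPM the log2 difference was 1.10 in POST-CX, 0.97 in CRPC and 1.68 in both ENZS and ENZR. The ratio of mean TPM to PRE-CX was 2.15 in POST-CX, 1.97 in CRPC, 3.43 in ENZS and 3.27 in ENZR. BCL2 was the single member with a log2 difference of 1 or more that passed, in ENZS, where 13.6% of all genes did so, and in ENZR, where 10.2% did. Under all 6 alternative settings the increase passed in CRPC, ENZS and ENZR, whereas in POST-CX it did not pass with TPM as deposited (log2 difference 0.47, adjusted p = 0.182).

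By mean level of BCL2, the groups ranked ENZS (3.55 ± 1.26 TPM, SD, n = 12), ENZR (3.39 ± 0.95, n = 15), POST-CX (2.23 ± 0.586, n = 8), CRPC (2.04 ± 0.655, n = 10) and PRE-CX (1.04 ± 0.489, n = 9). No difference was called between ENZS and ENZR (adjusted p = 0.979 by limma) or between POST-CX and CRPC (adjusted p = 0.844 by limma). These results do not show that the levels were equal. ENZR and POST-CX were not compared.

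MCL1, which encodes a short-lived survival protein, was higher in POST-CX, ENZS and ENZR but did not pass in CRPC. Its lowest, median and highest levels were 87.8, 118 and 183 TPM in PRE-CX, 138, 166 and 238 TPM in POST-CX, and 82.3, 134 and 166 TPM in CRPC. In ENZS they were 132, 160 and 261 TPM and in ENZR 127, 161 and 255 TPM. Every POST-CX, ENZS and ENZR tumour was above the PRE-CX median, but the groups overlapped, and the PRE-CX maximum was a single tumour (mouse 53). The log2 difference from PRE-CX was 0.52 (SE 0.14, adjusted p = 0.00394) in POST-CX, 0.41 (SE 0.12, adjusted p = 0.00436) in ENZS and 0.46 (SE 0.12, adjusted p = 0.000896) in ENZR. In CRPC it was 0.09 (adjusted p = 0.652). When each tumour was centred on its median gene, the differences in ENZS and ENZR were 0.11 and 0.20 and no longer passed (adjusted p = 0.378 for ENZS by limma), whereas that in POST-CX was 0.33 and passed (adjusted p = 0.0305). With TPM as deposited MCL1 passed in none of the groups (adjusted p = 0.622 in POST-CX by limma).

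BCL2L1, which encodes the survival protein BCL-XL and also a short pro-apoptotic splice form, could be measured as the sum of its transcripts only. Its lowest, median and highest levels were 50.9, 74.0 and 86.3 TPM in PRE-CX and 45.6, 59.4 and 64.5 TPM in POST-CX. All 8 POST-CX tumours were below the PRE-CX median and 2 were below its range. The log2 difference was -0.31 (SE 0.11, adjusted p = 0.0312). The call rested on single tumours, since it was lost without any 1 of POST-CX mice 18, 48 and 91 or PRE-CX mice 4 and 112 (adjusted p between 0.0560 and 0.0703 by limma), and under 3 of the 6 alternative settings. In CRPC, ENZS and ENZR the log2 difference was -0.20, 0.06 and -0.16, and none of these passed. Relative to the median gene of each tumour, BCL2L1 was lower in all 4 treated groups and passed in each, with log2 differences of -0.50 in POST-CX, -0.29 in CRPC, -0.23 in ENZS and -0.42 in ENZR, so that its direction in ENZS depended on the scaling.

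BAX, the pore-forming member that moves from the cytosol to mitochondria when activated, was lower in CRPC, ENZS and ENZR. Its lowest, median and highest levels were 21.0, 29.2 and 42.4 TPM in PRE-CX, 16.4, 28.6 and 44.6 TPM in POST-CX, and 15.4, 19.7 and 47.7 TPM in CRPC. In ENZS they were 10.6, 16.4 and 24.5 TPM and in ENZR 9.63, 19.9 and 48.5 TPM. In ENZS all 12 tumours were below the PRE-CX median and 11 below its range, and in ENZR 14 of 15 were below the median and 9 below the range. The highest values of CRPC and ENZR were each a single tumour, CRPC mouse 81 and ENZR mouse 87, and the second highest were 25.3 and 26.9 TPM.

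The log2 difference of BAX from PRE-CX was -0.96 in ENZS (SE 0.18, adjusted p = 1.05e-05) and -0.60 in ENZR (SE 0.17, adjusted p = 0.00247). The ratio of mean TPM was 0.503 in ENZS and 0.670 in ENZR. Both passed under all 6 alternative settings, with ranges of -1.25 to -0.96 and -0.86 to -0.60. Without ENZR mouse 87, the tumour with the lowest human share, the difference in ENZR was -0.69 (adjusted p = 0.000251 by limma). In CRPC the difference was -0.54 (SE 0.19, adjusted p = 0.0346). This call was lost without any 1 of CRPC mice 29, 36, 47 and 89 or PRE-CX mice 4, 5 and 67 (adjusted p between 0.0563 and 0.0721 by limma), with TPM as deposited (adjusted p = 0.196) and with no filter on low values (adjusted p = 0.0714). In POST-CX the difference was -0.18 (adjusted p = 0.5256).

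BAK1, the pore former that resides in the mitochondrial membrane, was lower in all 4 treated groups. Its lowest, median and highest levels were 11.3, 16.0 and 21.1 TPM in PRE-CX, 9.54, 11.7 and 17.3 TPM in POST-CX, and 8.26, 10.6 and 13.4 TPM in CRPC. In ENZS they were 9.06, 12.4 and 13.8 TPM and in ENZR 8.96, 11.8 and 16.7 TPM. All 10 CRPC and all 12 ENZS tumours, 7 of 8 POST-CX tumours and 14 of 15 ENZR tumours were below the PRE-CX median, and the ranges overlapped. The log2 difference was -0.49 in CRPC (SE 0.11, adjusted p = 0.00103), -0.36 in ENZS (SE 0.11, adjusted p = 0.00327) and -0.36 in ENZR (SE 0.10, adjusted p = 0.00265). With TPM as deposited, the calls in CRPC (adjusted p = 0.250) and ENZS (adjusted p = 0.150 by limma) were lost. In POST-CX the difference was -0.31 (SE 0.12, adjusted p = 0.0404), and it no longer passed in 10 of 54 refits that left out 1 tumour (those without POST-CX mice 18, 48, 86, 91 and 92 or PRE-CX mice 4, 5, 53, 58 and 112) and under 4 of the 6 alternative settings, 1 of which left out the 4 tumours of low human share.

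Among the 5 BH3-only members, 1 passed against PRE-CX in ENZS, where 61.1% of all genes passed. None passed in POST-CX, CRPC or ENZR, against 26.3%, 20.0% and 58.4% of all genes. Outside the 10 members, the BH3-only gene BAD was higher in ENZS and ENZR, and BMF in POST-CX and ENZR. The member that passed was BCL2L11, which encodes BIM, a protein that binds all the main survival members. Its lowest, median and highest levels were 10.7, 13.6 and 17.5 TPM in PRE-CX and 13.5, 17.9 and 29.5 TPM in ENZS. Of 12 ENZS tumours, 11 were above the PRE-CX median and 7 above its range. The log2 difference was 0.48 (SE 0.15, adjusted p = 0.00427), and it was 0.18 and did not pass when tumours were centred on their median gene. It did not pass with TPM as deposited either. Mean levels of BCL2L11 were 16.6 ± 3.34 TPM for POST-CX (SD, n = 8), 12.8 ± 3.39 for CRPC (n = 10) and 15.8 ± 4.38 for ENZR (n = 15), and none of these passed against PRE-CX.

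PMAIP1, which encodes NOXA, a partner of MCL1 and a p53 target, had a median of 11.4 TPM in PRE-CX and 8.23, 7.54, 6.89 and 6.72 TPM in POST-CX, CRPC, ENZS and ENZR. Its spread was wide, from 3.96 to 24.9 TPM in ENZR. The log2 difference was -0.50 in ENZS (95% confidence interval -1.03 to 0.02, adjusted p = 0.0916 by limma) and did not pass in any group. It passed in ENZS after centring (log2 difference -0.80, adjusted p = 0.0142) and without ENZS mouse 17 or PRE-CX mouse 112 (adjusted p = 0.0400 and 0.0417 by limma).

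BBC3, which encodes PUMA, another p53 target, had mean levels (± SD over the tumours of the group) of 3.88 ± 1.02 TPM before castration, 5.29 ± 0.816 for POST-CX, 3.83 ± 1.40 for CRPC, 4.54 ± 1.63 for ENZS and 5.19 ± 3.31 for ENZR. The ENZR mean was raised by mouse 87 at 16.3 TPM, next to a second highest value of 6.55 TPM. The log2 difference from PRE-CX was largest in POST-CX, at 0.38 (adjusted p = 0.159), and passed in none of the 4 comparisons. In a fit of POST-CX and PRE-CX alone it passed (adjusted p = 0.0366 by limma).

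BID, whose product is cleaved by caspase-8 and so links death receptors to mitochondria, had a median of 12.3 TPM in PRE-CX and 9.21 TPM in ENZS. The log2 difference in ENZS was -0.24 (95% confidence interval -0.47 to -0.01) and did not pass (adjusted p = 0.0677 by limma). Relative to the median gene it was -0.53 in ENZS and -0.28 in ENZR, and both passed (adjusted p = 0.000204 and 0.0372 by limma). BID also passed in ENZS without any 1 of ENZS mice 28, 49 and 79 or PRE-CX mice 58 and 62. BIK, a BH3-only protein of the endoplasmic reticulum, had means between 10.9 TPM in PRE-CX and 12.7 TPM in ENZS. Its log2 differences from PRE-CX lay between -0.01 and 0.20, and none passed.

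**Figure D3:**
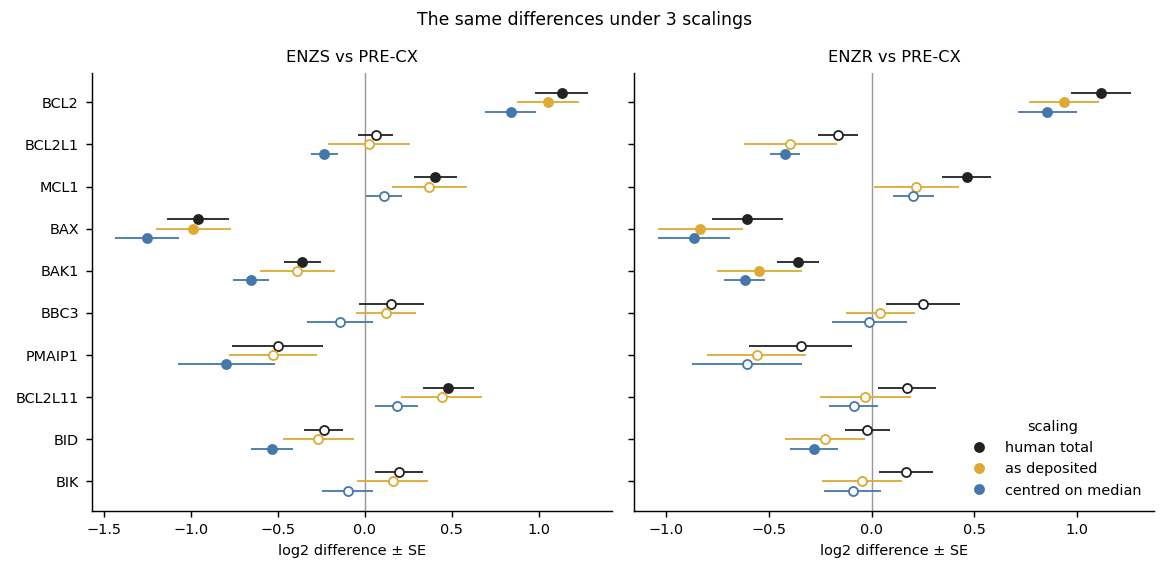
Log2 difference (± SE) of each BCL2 family gene from PRE-CX in ENZS and ENZR under 3 scalings: TPM relative to the human total, TPM as deposited, and values centred on the median gene of each tumour. Filled points passed the test. BCL2 (0.84 to 1.13 in ENZS) and BAX (-1.25 to -0.96 in ENZS) passed under all 3, while MCL1 and BCL2L11 did not pass after centring.

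The relapse steps were then compared with the responses that preceded them. Between CRPC and POST-CX none of the 10 members passed by limma, against 0.0625% of all genes (11 of 17593). At an unadjusted p under 0.05, 3 members and 2259 of all genes were counted. The members were MCL1 (log2 difference -0.43, 95% confidence interval -0.70 to -0.16, adjusted p = 0.150), BCL2L11 (-0.37, interval -0.68 to -0.05) and BBC3 (-0.42, interval -0.83 to -0.02). MCL1 was below the POST-CX median in 9 of 10 CRPC tumours. For BCL2 the log2 difference was -0.10 (interval -0.42 to 0.23), and for BAX -0.36 (interval -0.75 to 0.03).

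Between ENZR and ENZS none of the members passed by limma, against 0.00% of all genes. At an unadjusted p under 0.05, 4 members and 1752 of all genes were counted. BAX had a log2 difference of 0.35 (95% confidence interval 0.04 to 0.67, adjusted p = 0.451 by limma) and was above the ENZS median in 11 of 15 ENZR tumours. BID had a difference of 0.22 (interval 0.01 to 0.42) and was above the ENZS median in 13 of 15. BCL2L1 (-0.22, interval -0.40 to -0.05) and BCL2L11 (-0.31, interval -0.56 to -0.05) were lower. For BCL2 the difference was -0.02, and its interval of -0.29 to 0.25 left out a further change as large as that between PRE-CX and ENZS.

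The difference between the relapse steps was tested directly, as the ENZR minus ENZS difference less the CRPC minus POST-CX difference. None of the 10 members passed by limma, against 0.199% of all genes (35 of 17593), and 4 members had an unadjusted p under 0.05 (2382 of all genes). These were BAX (0.71, 95% confidence interval 0.21 to 1.21, adjusted p = 0.183), MCL1 (0.48, interval 0.14 to 0.83, adjusted p = 0.193), BID (0.46, interval 0.14 to 0.78, adjusted p = 0.178) and BCL2L1 (-0.34, interval -0.62 to -0.06, adjusted p = 0.266). After centring on the median gene, BCL2L1 passed (-0.41, adjusted p = 0.0433 by limma).

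ENZS tumours were also compared with CRPC tumours, the castrated tumours that had relapsed without the drug. Of the 10 members, 4 passed, all higher in ENZS, against 37.8% of all genes in either direction and 31.4% higher. The median log2 difference was 0.20 over the members and 0.21 over all genes. Higher members were BCL2 (log2 difference 0.55, SE 0.15, adjusted p = 0.00345), BCL2L11 (0.58, SE 0.14, adjusted p = 0.00154), MCL1 (0.31, SE 0.12, adjusted p = 0.0375) and BCL2L1 (0.26, SE 0.10, adjusted p = 0.0329). All 12 ENZS tumours were above the CRPC median of BCL2L11 (11.9 TPM), and 11 of 12 were above that of BCL2 (1.94 TPM). The calls for MCL1 and BCL2L1 were each lost in 8 of 54 refits that left out 1 tumour. For MCL1 these were the refits without CRPC mice 29, 35, 47 and 81 or ENZS mice 49, 56, 57 and 80, and for BCL2L1 those without CRPC mice 29, 35, 47 and 102 or ENZS mice 6, 17, 56 and 80. BAX had a log2 difference of -0.42 (95% confidence interval -0.77 to -0.07, adjusted p = 0.0502 by limma), which lay at the threshold and passed in 14 of 54 such refits. Some of these left out a tumour of a group outside the comparison. Without CRPC mouse 81, the tumour with the highest BAX of its group, the difference was -0.30 (adjusted p = 0.161 by limma). After centring, the differences of BCL2L11 (0.38, adjusted p = 0.0162) and BAX (-0.63, adjusted p = 0.00708) passed by limma, as did that of BID (-0.38, adjusted p = 0.0128). BCL2 did not (0.34, adjusted p = 0.0701 by limma). With TPM as deposited none of the 10 members passed, against 8.93% of all genes.

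**Figure D4:**
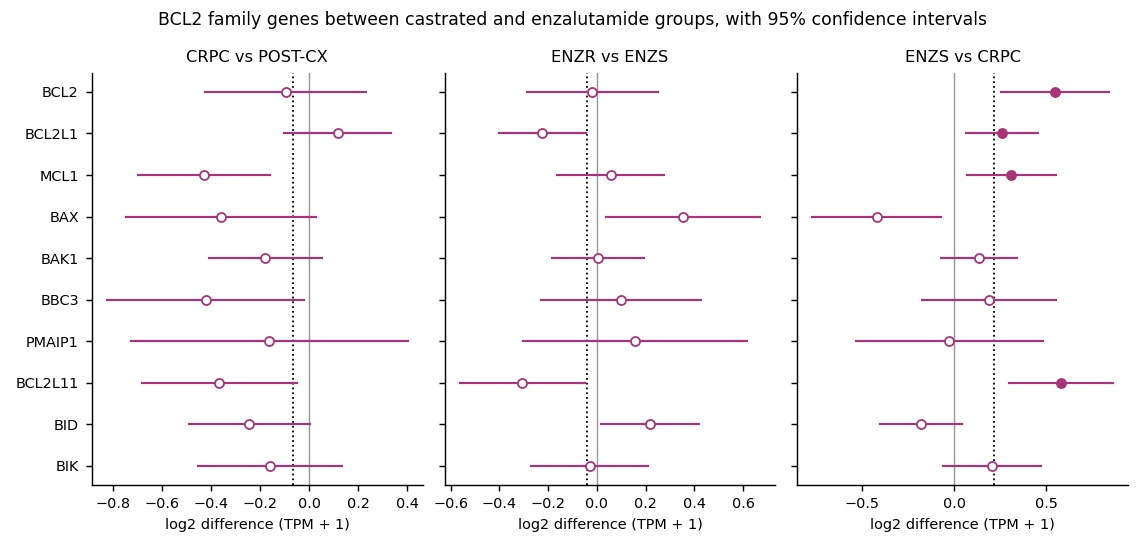
Log2 difference of each BCL2 family gene between CRPC and POST-CX, ENZR and ENZS, and ENZS and CRPC, with 95% confidence intervals. Filled points passed the test, the grey line is 0 and the dotted line is the median of all genes. No member passed in the relapse steps (left and middle), and 4 passed between ENZS and CRPC.

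The balance of survival and pore-forming transcripts within a tumour is not changed by rescaling to the human total. It is given as the log2 ratio of the summed TPM of BCL2, BCL2L1 and MCL1 to that of BAX and BAK1, as a description with no test. In PRE-CX the ratio had a lowest value of 1.71, a median of 1.97 and a highest value of 2.49. In POST-CX these values were 2.11, 2.52 and 3.16, and in CRPC 1.73, 2.701 and 3.001. In ENZS they were 2.80, 3.12 and 3.52, so that every ENZS tumour was above every PRE-CX tumour. In ENZR they were 2.38, 2.80 and 3.56, and the ENZR tumours overlapped with all the other groups. Group means (± SD over tumours) were 2.04 ± 0.277 for PRE-CX, 2.53 ± 0.309 for POST-CX, 2.59 ± 0.384 for CRPC, 3.11 ± 0.242 for ENZS and 2.85 ± 0.362 for ENZR. The lowest CRPC value was that of mouse 81 and the lowest ENZR value that of mouse 87, the tumour with the lowest human share (12.1%). On average BCL2 made up 0.539% of the survival sum in PRE-CX and 1.49% in ENZS, so that sum was mostly MCL1 and BCL2L1. How many genes or gene ratios separated ENZS from PRE-CX to this extent was not counted. Between these groups 61.1% of all genes passed the test.

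The summed survival genes were at 195 ± 31.2 TPM in PRE-CX and 241 ± 38.9 in ENZS, and the pore-forming genes at 47.7 ± 8.63 TPM in PRE-CX and 28.0 ± 4.19 in ENZS. Unlike their ratio, each sum depends on the scaling, and relative to the median gene neither MCL1 (0.11, not passed) nor BCL2L1 (-0.23, passed) was called higher in ENZS. The ratio to the 5 BH3-only genes moved less, from a mean of 1.92 ± 0.259 in PRE-CX to 2.14 ± 0.225 in ENZS and 2.13 ± 0.306 in ENZR on the log2 scale. The ratio of BAX to BCL2, which compares single genes of the opposing roles, had a median of 36.7 in PRE-CX, 12.8 in POST-CX, 9.44 in CRPC, 4.37 in ENZS and 6.14 in ENZR. BAX thus exceeded BCL2 in TPM in every tumour, by 68.2 to 1 at most (PRE-CX mouse 4) and 2.51 to 1 at least (ENZS mouse 17). In ENZS all 12 ratios, up to 12.5, were below the lowest PRE-CX ratio of 13.7. In ENZR mouse 87 (20.3) lay within the PRE-CX range. BCL2 and BAX were the members of their roles with the strongest differences over the 5 groups. They moved in opposite directions, so the separation follows in part from the choice of pair. The log2 ratio of BCL2 to BCL2L11 overlapped, at -4.14 to -1.64 in ENZS and -4.81 to -2.81 in PRE-CX. That of MCL1 to PMAIP1 also overlapped, at 3.06 to 5.51 and 2.72 to 4.52.

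**Figure D5:**
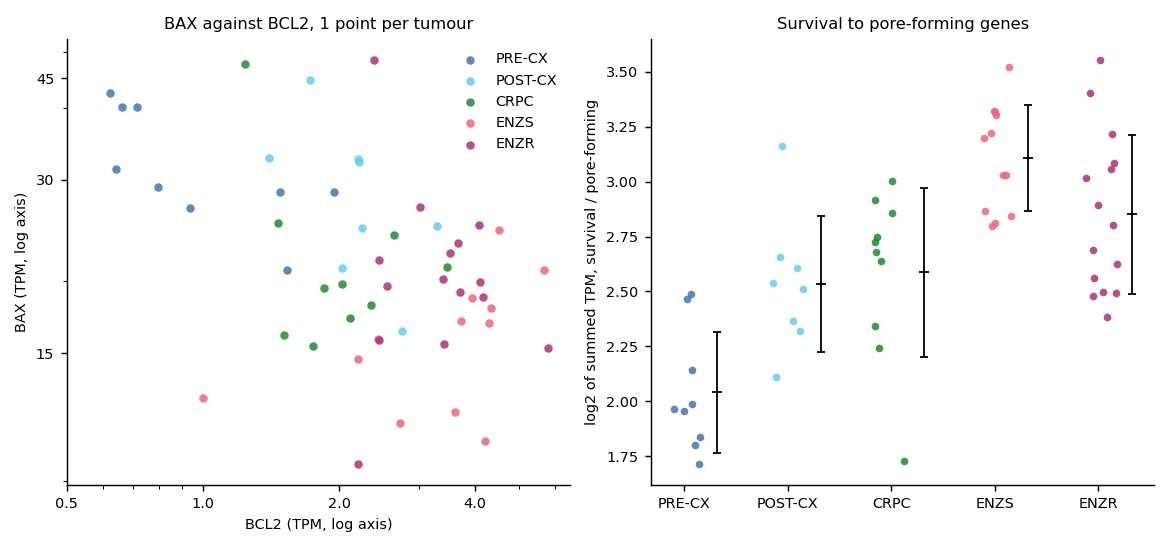
Left, BAX against BCL2 (TPM, log axes) with 1 point per tumour, coloured by group. Right, log2 ratio of summed survival to summed pore-forming genes per tumour, with black bars for mean ± SD. PRE-CX tumours lie at upper left (BCL2 up to 1.95 TPM, BAX from 21.0 TPM), and all ENZS ratios are at 2.80 or more.

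Variation among tumours of one group was examined for the 45 pairs of members in ENZR (n = 15) and in ENZS (n = 12), on log2(TPM + 1), with permutation tests of 100000 resamples and adjustment over all 90 pairs. No pair passed by Pearson's r or by Spearman's rho, and 13 pairs had an unadjusted permutation p under 0.05 for Pearson's r. The strongest was BBC3 with PMAIP1 in ENZS (r = 0.84, permutation p = 0.00078, adjusted p = 0.0702; rho = 0.81, permutation p = 0.00197, adjusted p = 0.132). Without the 2 tumours farthest from the median of BBC3, r was 0.75. The tumours share a scaling to the human total, and 39 of 45 correlations in ENZS and 27 of 45 in ENZR were positive.

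For the member of each role with the largest moderated F over the groups, the genes with the most similar pattern over the 54 tumours were listed by Spearman's rho, among 11614 genes with a mean of at least 5 TPM. For BCL2 these were PAM (rho = 0.845), EIF4E3 (0.833) and AHI1 (0.832). PAM had a mean of 4.59 TPM in PRE-CX and 25.1 TPM in ENZS. For BAX they were UTP6 (0.734), PFN1 (0.734) and TNFRSF10B (0.726), the last encoding a death receptor for the ligand TRAIL. For BCL2L11 they were KANSL3 (0.770), ZNF134 (0.768) and ZNF549 (0.759). These correlations describe points that share groups and scaling.

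Of 40 other genes of the apoptosis machinery that had been listed, 36 passed the filter on low values (BCL2A1, BCL2L10, BCL2L14 and HRK did not). Against PRE-CX, 3 were higher and 3 lower in POST-CX, 1 higher and 3 lower in CRPC, 14 higher and 8 lower in ENZS, and 14 higher and 7 lower in ENZR. The shares were 16.7%, 11.1%, 61.1% and 58.3%, next to 26.3%, 20.0%, 61.1% and 58.4% of all genes. After centring, more were lower than higher in every group, with 1 higher and 9 lower in POST-CX, 1 and 5 in CRPC, 5 and 18 in ENZS, and 8 and 15 in ENZR. Of all genes, 24.5%, 22.5%, 54.9% and 51.9% then passed. Among these passing genes, 41.4%, 51.4%, 48.4% and 46.7% were higher.

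Of the 6 inhibitors of apoptosis tested, 4 were higher and 1 lower in both ENZS and ENZR against PRE-CX, and CFLAR did not pass. Of all genes, 61.1% passed in ENZS and 58.4% in ENZR. BIRC5 (survivin), which is also a mitotic protein, fell from 52.7 ± 10.98 TPM in PRE-CX (n = 9) to 5.95 ± 6.15 in ENZS (n = 12) and 13.7 ± 13.8 in ENZR (n = 15), with log2 differences of -3.48 (adjusted p = 1.46e-08) and -2.49 (adjusted p = 6.23e-06). BIRC5 moved with the sum of the 4 cycling genes, which had means of 365, 64.1 and 106 TPM in these groups. XIAP, a direct inhibitor of caspases, rose from 22.5 ± 8.63 TPM in PRE-CX to 43.1 ± 10.97 in ENZR (log2 difference 0.96, adjusted p = 8.26e-07). BIRC3 was higher in ENZS (1.04, adjusted p = 0.0103) and ENZR (1.07, adjusted p = 0.00674), with a mean of 32.4 ± 57.8 TPM in ENZR that was set by its spread. BIRC2 and BIRC6 were also higher in both groups. The increases named here and below are relative to the human total. Of the 36 genes, 14 were higher in ENZS and 14 in ENZR under that scaling, against 5 and 8 after centring. Which of the named genes stayed higher after centring is not reported here.

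CASP8, CASP9 and CASP10, the initiator caspases, and APAF1, the scaffold of the apoptosome, were higher in both ENZS and ENZR under the same scaling. CASP10 had a mean of 2.01 ± 1.23 TPM in PRE-CX and 4.39 ± 1.82 in ENZR (0.87, adjusted p = 0.000317). The TRAIL receptor TNFRSF10B was lower in all 4 treated groups, at 90.4 ± 17.0 TPM in PRE-CX, 58.3 ± 10.0 in POST-CX, 48.5 ± 15.3 in CRPC and 43.3 ± 14.1 in ENZS (log2 difference -1.09 in ENZS, adjusted p = 1.18e-07). Of the 6 death receptors and adaptors tested, no other was lower in any treated group. TNFRSF1A and TRADD were higher in ENZS and TRADD in ENZR, and TNFRSF10A, another TRAIL receptor, did not pass in either.

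Relatives of the family outside the 10 members included BCL2L12, which fell from 16.1 ± 2.03 TPM in PRE-CX to 7.55 ± 1.46 in ENZS (log2 difference -1.01, adjusted p = 6.32e-10), and BNIP3, a hypoxia-induced mitochondrial protein, which fell from 331 ± 190 TPM in PRE-CX to 113 ± 22.5 in POST-CX (-1.40, adjusted p = 0.000366). BMF, a BH3-only gene, rose from 9.57 ± 2.10 to 16.8 ± 4.13 TPM in POST-CX (0.75, adjusted p = 0.00753). Between ENZS and CRPC, the survival gene BCL2L2 was higher in ENZS (54.9 ± 11.6 against 34.5 ± 8.04 TPM, 0.66, adjusted p = 0.000206), as were CASP9 (0.57, adjusted p = 0.000614) and BIRC2 (0.54, adjusted p = 0.000450). In that comparison 10 of the 36 genes were higher and 3 lower, a share of 36.1% next to 37.8% of all genes. After centring 6 were higher and 10 lower, a share of 44.4% next to 25.1% of all genes. None of the 36 passed by limma in either relapse step, where 6 (CRPC against POST-CX) and 4 (ENZR against ENZS) had an unadjusted p under 0.05.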

How the data were processed

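RNA from 54 xenograft tumours was sequenced as stranded, polyadenylated RNA. The authors trimmed the reads, aligned them to a joint human (GRCh38) and mouse reference and quantified them, and the submitters' processing notes name FastQC 0.11.9, Trim Galore 0.6.5, STAR 2.7.2b and RSEM 1.3.3. The deposited values are TPM per human gene symbol. They carry no read counts, so the depth of a tumour is unknown and no counting interval is given. Precision rests on the spread between tumours.

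Here, TPM of each tumour were rescaled to a human total of 1000000. The 17593 genes that reached 1 TPM in 8 or more tumours were tested on log2(TPM + 1) with limma 3.58.1 (R 4.3.3), two-sided, in 1 fit of 5 group means with trend, and p-values were adjusted by Benjamini-Hochberg within each comparison over all genes. Groups came from the labels, which number the mice and give no batch. Permutation tests used numpy 2.4.6 and scipy 1.17.1. Scripts were tested on simulated data.

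Alternatives were TPM as deposited, centring, a pseudocount of 0.1 TPM, no filter, fits of the compared groups only, leaving out 4 tumours with under 70% human total or each tumour in turn, and, chosen after seeing the data, a log2 difference of at least 1. The members and lists were chosen with earlier results of these data known. All 10 members are named. Of the other listed apoptosis genes, those named with values had the largest differences among the genes that passed in a comparison, up to 4 each, and some listed genes are not reported here. Other genes of the role counts and the E-box were chosen after their values were seen.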

Additional observations from a re-analysis of the deposited data

Results flagged for a closer look

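In 30 combinations of a member with a group of 4 to 10 tumours, 3 tumours stood apart from the rest of their group by Dixon's gap criterion, which chance alone meets in about 1 of 20. BAX in CRPC mouse 81 was at 47.7 TPM, and the next highest CRPC tumour was at 25.3 TPM. BIK in the same tumour was at 20.6 TPM, and the next highest was at 12.1 TPM. CRPC mouse 81 also had the lowest BCL2 of its group (1.24 TPM), the highest sum of the 4 cycling genes (478 TPM) and a human share of 97.0%. Without it, BAX was lower in CRPC than in PRE-CX by a log2 difference of -0.66 (adjusted p = 0.00461 by limma). Between ENZS and CRPC the difference of BAX was then -0.30 and did not pass (adjusted p = 0.161 by limma). MCL1 in PRE-CX mouse 53 was at 183.0 TPM, and the next highest PRE-CX tumour was at 136 TPM. Without it, the log2 difference of MCL1 from PRE-CX was 0.60 in POST-CX, 0.48 in ENZS and 0.54 in ENZR, and all 3 passed by limma.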

How the results depend on the processing

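Under the 6 alternative settings, BCL2 in CRPC, ENZS and ENZR and BAX in ENZS and ENZR passed throughout. The count of members that passed against PRE-CX was most sensitive to the scaling. With TPM as deposited it was 0 in POST-CX, 1 in CRPC, 2 in ENZS, 3 in ENZR, and between ENZS and CRPC it was 0. Of all genes, 4.33%, 7.43%, 38.5%, 29.1% and 8.93% passed under this setting, in the same order. After centring the count was 4 in POST-CX (2 higher, 2 lower), 4 in CRPC (1 higher, 3 lower), 6 in ENZS (1 higher, 5 lower in place of 3 and 2), 5 in ENZR (1 higher, 4 lower in place of 2 and 2) and 3 between ENZS and CRPC (1 higher, 2 lower in place of 4 and 0). The shares of all genes were then 24.5%, 22.5%, 54.9%, 51.9% and 25.1%. Requiring a log2 difference of at least 1, the count was 0 in POST-CX and CRPC, 1 in ENZS and ENZR and 0 between ENZS and CRPC. Of all 17593 genes, 645 in POST-CX, 587 in CRPC, 2384 in ENZS, 1797 in ENZR and 497 between ENZS and CRPC met this rule. Without a filter on low values the count was 2 in POST-CX, 2 in CRPC and 2 between ENZS and CRPC, against 10.4%, 7.92% and 16.2% of all genes. Without the 4 tumours of low human total the count was 2 in POST-CX, against 24.9% of all genes. After centring, 1 member (BCL2L1) passed for the difference of the relapse steps, against 1.03% of all genes. BCL2L1 in ENZS also reversed against PRE-CX (-0.23 in place of 0.06). Centring shifts the difference of every gene in a comparison by the same amount, as for BCL2 (1.13 to 0.84) and BAX (-0.96 to -1.25) in ENZS. Why the median gene differed between the groups was not tested. Leaving out 1 tumour gave 2 to 4 members in POST-CX, 2 to 3 in CRPC, 5 to 6 in ENZS and 2 to 5 between ENZS and CRPC, 4 in each refit in ENZR, and 0 in the relapse steps. Shares of all genes in these refits are not reported here. The fold changes of BCL2 were larger with a pseudocount of 0.1 TPM.

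Of the 36 other apoptosis genes, with TPM as deposited 3 passed in POST-CX, 1 in CRPC, 9 in ENZS, 9 in ENZR and 1 between ENZS and CRPC. These shares were 8.33%, 2.78%, 25.0%, 25.0% and 2.78%, next to 4.33%, 7.43%, 38.5%, 29.1% and 8.93% of all genes. In POST-CX 10 passed after centring and 10 in a fit of the compared groups alone (27.8% in both, next to 24.5% and 31.5% of all genes). Between CRPC and POST-CX, 2 passed in such a fit (0.506% of all genes) and 1 without the tumours of low human total (0.79% of all genes). With the mean of log2 values of each role in place of sums, the survival to pore-forming balance was 0.17 in PRE-CX, 0.71 in POST-CX, 0.84 in CRPC, 1.36 in ENZS and 1.12 in ENZR, and the survival to BH3-only balance 1.32, 1.48, 1.61, 1.83 and 1.74, with ENZS highest and PRE-CX lowest in both, as with sums. No paired analysis was possible because no mouse number is shared between groups. TPM without counts limits what can be said of BCL2, which was near 1 TPM in PRE-CX.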
